A study of Caenorhabditis elegans with 2 samples.

Results

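The genes described here are xol-1, the master switch of sex determination in the nematode Caenorhabditis elegans, and 5 genes that report the ratio of X chromosomes to autosomes to it: sex-1, fox-1, ceh-39, sea-1 and sea-2. They were taken by name as a set of 6 among 19973 nuclear protein-coding genes. Around each gene, the summits of NHR-237 peaks were collected in the gene body and 10 kb on each side. Chromatin immunoprecipitation followed by sequencing (ChIP-seq), which recovers and counts the DNA bound by a chosen protein, had been run on NHR-237, a nuclear hormone receptor, in mixed-stage embryos. All samples came from strain OP228, genotype unc-119(ed3) III; wgIs228, whose integrated transgene adds an enhanced green fluorescent protein (eGFP) tag to NHR-237. The single group held 2 biological replicates of whole organisms, labelled as males and females pooled, with no age given beyond the mixed embryonic stage. The unc-119 mutation and the transgene were shared by both replicates, the tagged protein came from an inserted transgene, and no group without the tag was analysed here. Embryos with 1 and with 2 X chromosomes, and the cell types within an embryo, cannot be told apart in these lists.

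In C. elegans, XX embryos become hermaphrodites and XO embryos become males, and the decision is read out as the activity of xol-1 in the early embryo. X signal elements, encoded on the X chromosome, lower xol-1 activity: sex-1 encodes a nuclear hormone receptor and ceh-39 a ONECUT homeodomain protein, both repressors of xol-1 transcription, and fox-1 encodes an RNA-binding protein that acts on xol-1 splicing. Autosomal signal elements raise it: sea-1 encodes a T-box transcription factor and sea-2 a zinc finger protein. Where xol-1 is off, sdc-2 is active, and the dosage compensation complex is loaded on both X chromosomes of XX embryos and lowers their transcription.

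The irreproducible discovery rate (IDR) procedure keeps peaks whose ranks are alike between lists. Of the peaks it kept, 5 had summits in the 6 windows. Their central sequences are shown because they are the places near these genes where the protein was called most firmly. Each runs 100 bases to either side of the summit on build ce11 (WBcel235) and is written 5′ to 3′ on the strand of the named gene. Capitals mark matches, on either strand, to the 10 short motifs that were searched and are spelled out with their counts further on.
xol-1 upstream site, chrX:8036304-8036504, plus strand: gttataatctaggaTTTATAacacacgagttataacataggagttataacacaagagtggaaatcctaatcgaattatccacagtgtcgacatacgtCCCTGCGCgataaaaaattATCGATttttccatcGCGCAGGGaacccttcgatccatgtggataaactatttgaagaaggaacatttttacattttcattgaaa
ceh-39 promoter, chrX:1856258-1856458, minus strand: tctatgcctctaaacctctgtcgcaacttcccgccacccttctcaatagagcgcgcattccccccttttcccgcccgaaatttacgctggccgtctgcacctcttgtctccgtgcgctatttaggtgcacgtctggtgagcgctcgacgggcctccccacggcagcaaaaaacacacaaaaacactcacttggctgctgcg
ceh-39 upstream site, chrX:1858695-1858895, minus strand: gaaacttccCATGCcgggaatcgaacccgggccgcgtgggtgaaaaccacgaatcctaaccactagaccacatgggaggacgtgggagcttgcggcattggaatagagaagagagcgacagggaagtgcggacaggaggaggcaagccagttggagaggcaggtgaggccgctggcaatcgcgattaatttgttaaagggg
sex-1 downstream site, chrX:10197384-10197584, minus strand: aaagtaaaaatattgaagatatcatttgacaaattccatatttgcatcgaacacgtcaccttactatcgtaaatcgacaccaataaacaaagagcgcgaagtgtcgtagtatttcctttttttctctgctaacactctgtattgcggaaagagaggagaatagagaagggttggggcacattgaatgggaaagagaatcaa
sea-2 intron, chrII:3958817-3959017, plus strand: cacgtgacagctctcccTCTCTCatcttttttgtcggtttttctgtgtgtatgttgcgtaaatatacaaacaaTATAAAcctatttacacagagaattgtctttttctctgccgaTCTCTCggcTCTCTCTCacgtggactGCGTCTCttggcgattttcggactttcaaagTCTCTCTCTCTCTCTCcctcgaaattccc

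A peak at the xol-1 promoter itself was in the pooled list, called on both replicates together, and not in the IDR list. Its sequence is given for comparison with the upstream site of the same gene.
xol-1 promoter, chrX:8041138-8041338, plus strand: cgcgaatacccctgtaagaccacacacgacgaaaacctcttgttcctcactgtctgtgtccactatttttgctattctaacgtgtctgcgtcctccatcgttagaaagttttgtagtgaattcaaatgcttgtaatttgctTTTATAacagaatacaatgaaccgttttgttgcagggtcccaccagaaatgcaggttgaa

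The deposited lists held 1626 IDR peaks, 30000 pooled peaks, 10872 replicate 1 peaks and 30000 replicate 2 peaks. Apart from the IDR list these contain background regions besides peaks, since they were prepared for that procedure, so presence in one of them is weak evidence of a site. Each value below is the signal value that the authors' peak caller gave a peak, with its rank by signal within its list (rank 1 is the highest). The values are not scaled between lists. All IDR peaks were also pooled peaks with the same values, and the IDR list was in effect a threshold on them: its lowest signal was 72.6 and its median 106. Read depth is unknown, so no counting error can be given for a peak, and the replicate lists are the only measure of spread. The replicates are labelled as biological, and nothing further says how the embryo preparations were separated.

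In the IDR list, 4 of the 6 genes had a summit in the window of gene body and 10 kb each side. The share of all protein-coding genes with such a summit was 32.2%, with 28.7% on the X chromosome and 31.4% on chromosome II. In the pooled list all 6 genes had one, as did 96.7% of all genes, so a pooled summit in a window singles out few genes. The 4 genes were xol-1 with 1 summit, sex-1 with 1, ceh-39 with 2 and sea-2 with 1, whereas fox-1 and sea-1 had none. The 5 summits can be set beside a median of 0 and a mean of 0.422 per window over all genes; 24.3% of genes had 1 summit and 6.02% had 2. In a promoter, taken from 500 bp before to 200 bp after any 5′ end of the gene's protein-coding transcripts, 1 of the 6 genes had an IDR summit, and this was ceh-39. The share over all protein-coding genes was 6.69%, and it was 4.03% on the X chromosome and 6.55% on chromosome II. No test was made of these counts, and with 6 genes a single one moves the share widely.

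**Figure D1:**
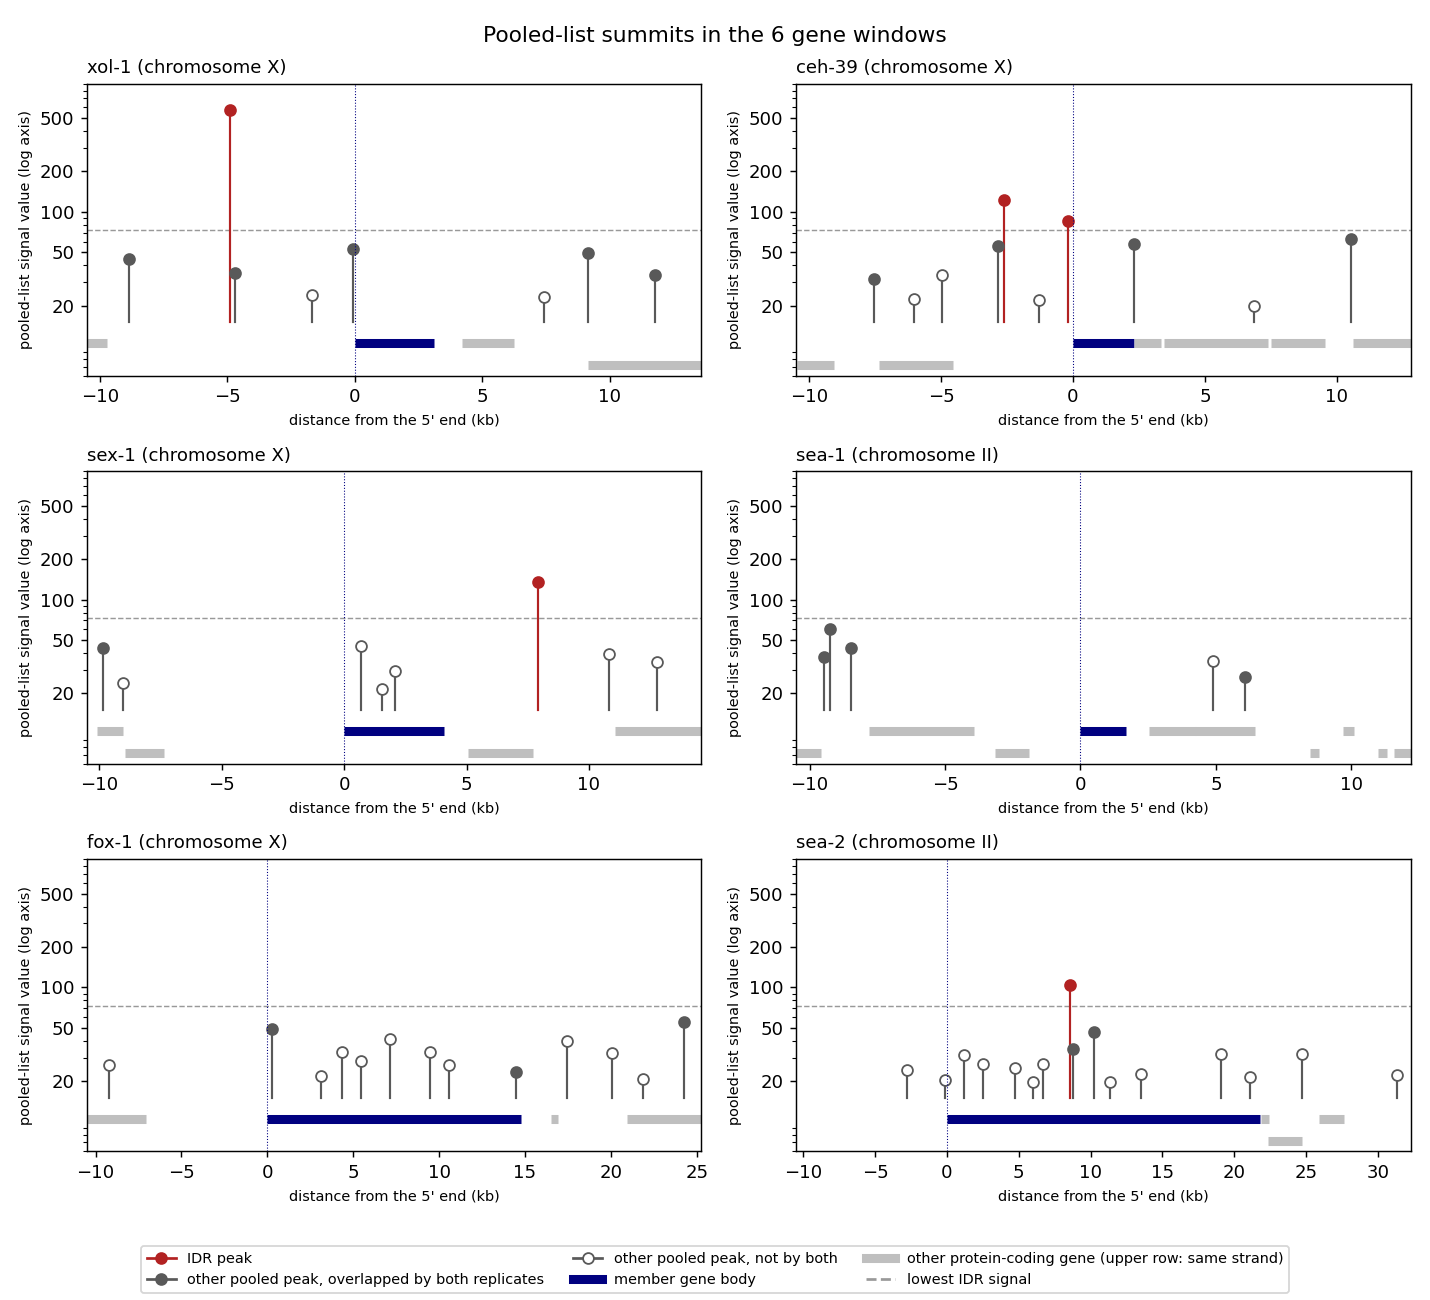
Signal value in the pooled list (log axis) of each summit in the windows of the 6 genes, against distance from the gene's 5′ end in kb, negative upstream. Red points are IDR peaks, filled grey points are other pooled peaks overlapped by a peak of both replicates, and open points are the remaining pooled peaks; bars show gene bodies. The xol-1 site at 571 stands above the other 4 IDR peaks, which lie between 85.8 and 135, and fox-1 and sea-1 have no point above the dashed line at 72.6.

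The gene xol-1 (WBGene00006962, chrX:8041313-8044409, plus strand) encodes a protein related to small-molecule kinases. It had the strongest peak of the 6 windows, and that peak was not at its promoter. The peak spanned chrX:8036146-8036673, with its summit at 8036404, which is 4909 bp upstream of xol-1 in intergenic sequence. Its signal was 571 in the IDR list, rank 15 of 1626 and the 9th highest of 248 on the X chromosome. In replicate 1 the overlapping peak had a signal of 270 and rank 16, and in replicate 2 a signal of 294 and rank 17. The ranks were thus close to each other in all lists. The protein-coding gene with the nearest 5′ end was xol-1 itself, whereas the nearest non-coding gene, the ncRNA C18A11.13, began 270 bp from the summit. A tRNA gene, WBGene00022939, lay within that ncRNA on the other strand, 281 bp from the summit.

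At the xol-1 promoter the peak was much weaker and missed the IDR list. Its summit was 75 bp upstream of the gene's 5′ end, in a peak at chrX:8041040-8041435 with a pooled signal of 52.5 and rank 2777. Replicate 1 had a peak there with a signal of 25.0 and rank 3433, and replicate 2 one with a signal of 27.7 and rank 3246. Both replicates therefore listed the promoter, but not among their 1626 highest peaks, the number held by the IDR list. Other pooled peaks near xol-1 that both replicates overlapped had summits 8854 bp upstream, with a signal of 44.2, and 9129 bp downstream, with 49.6. A further one lay 11761 bp downstream in the promoter of dim-1, with a signal of 33.8, and its replicate 1 peak had rank 2038. The overlapping replicate 2 peak, at rank 28667, had its summit 300 bp from the pooled one and outside the promoter window. The strong upstream peak was listed with a second summit in the same interval, 4705 bp upstream of xol-1, at a pooled signal of 35.2. Replicate 2 also listed a second summit at that position, with a signal of 54.6 and rank 911, and replicate 1 did not. The window held 8 pooled summits, and none of them lay in the xol-1 gene body.

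Of the X signal elements that act as transcriptional repressors, ceh-39 (WBGene00000460, chrX:1853874-1856172, minus strand) had an IDR peak at its promoter and another further upstream. The promoter peak, chrX:1856160-1856555, had its summit 186 bp upstream of the 5′ end, a signal of 85.8 and rank 1210. Its signal was 48.5 at rank 934 in replicate 1 and 42.4 at rank 1455 in replicate 2. The promoter served ceh-39 alone among protein-coding genes, although the ncRNA T26C11.10 began 115 bp from the summit on the other strand. The upstream peak, chrX:1858597-1858992, had its summit 2623 bp upstream of ceh-39, a signal of 123 and rank 612. In replicate 1 it had a signal of 66.2 and rank 479, and in replicate 2 a signal of 54.1 and rank 931. Both ceh-39 peaks thus ranked higher in replicate 1 than in replicate 2, and both were in the upper 1626 of each replicate list. The upstream summit lay 24 bp from the start of a tRNA gene, WBGene00023152, and the nearest protein-coding 5′ end, 1927 bp away, was that of T26C11.8, not ceh-39. That tRNA gene, chrX:1858819-1858890, lay wholly within the peak and within the sequence shown for it.

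The ceh-39 window also covered ceh-21 and ceh-41, other ONECUT genes in the same stretch of the X chromosome. Neither had an IDR or a pooled summit in its promoter. Below the IDR list, pooled peaks of 57.8 (rank 2358) and 62.9 (rank 2054) lay 2302 bp and 10560 bp downstream of the ceh-39 5′ end, in the promoters of T26C11.9 and T26C11.4. Both were overlapped by peaks of both replicates, but the T26C11.9 site was uneven, with rank 1878 in replicate 1 and rank 14297 in replicate 2.

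The nuclear receptor gene sex-1 (WBGene00004786, chrX:10201329-10205421, minus strand) had no summit of any of the 4 lists in its promoter. The IDR peak in its window, chrX:10197286-10197681, had its summit 7937 bp downstream of the sex-1 5′ end, past the other end of the gene. It lay 222 bp upstream of nucb-1, which encodes a nucleobindin, and in the promoter of that gene alone. Its signal was 135 at rank 485 in the IDR list. In replicate 1 it had a signal of 60.1 and rank 588, and in replicate 2 a signal of 77.4 and rank 413. By position the peak belonged to the nucb-1 promoter, with the whole of nucb-1 between it and sex-1. Within sex-1 itself, 3 pooled summits lay in introns, and the highest, 690 bp downstream of the 5′ end, had a signal of 44.9 and rank 3797. Replicate 2 had a peak there at 21.5, rank 6215, and replicate 1 had none.

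The RNA-binding protein gene fox-1 (WBGene00001484, chrX:2445117-2459893, minus strand) had no IDR summit anywhere in its window of gene body and flanks. It has 6 annotated 5′ ends, and its highest promoter summit, at an internal one of these, had a pooled signal of 32.8 and rank 8544. Just inside the gene, 281 bp downstream of its first 5′ end and outside the promoter window, a pooled peak had a signal of 48.9 and rank 3212. Replicate 1 had a peak there at 21.9, rank 4833. Replicate 2 had a peak with its summit 266 bp downstream of the 5′ end, at 11.2 and rank 28146, near the end of its list, and a stronger overlapping peak of 14.6, rank 16674, whose summit was 325 bp from the pooled one. The highest pooled peak of the window, at 55.3 and rank 2528, lay 24278 bp downstream of the 5′ end in the promoter of gid-2. The window held 13 pooled summits, 8 of them within fox-1, and 3 of the 13 were overlapped by both replicates.

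Among the autosomal signal elements, sea-1 (WBGene00004750, chrII:3671908-3673593, minus strand) had the fewest summits. Its window held 5 pooled summits, none in the gene body or promoter, and the same held for the gene body and promoter in both replicate lists. The highest lay 9241 bp upstream in the promoter of F19B10.1, with a pooled signal of 60.4 and rank 2179. Replicate 1 had this peak at 30.2, rank 2282, and replicate 2 at 38.8, rank 1688. The pooled summit nearest to the 5′ end of sea-1 lay 4877 bp downstream, inside srx-97.

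The zinc finger gene sea-2 (WBGene00004751, chrII:3950377-3972140, plus strand) had its IDR peak inside the gene. The peak, chrII:3958719-3959114, had its summit in an intron 8540 bp downstream of the first 5′ end and 3306 bp upstream of the nearest other 5′ end of sea-2. Its signal was 104 at rank 840, and it was the 139th highest of 259 on chromosome II. In replicate 1 it had a signal of 45.3 and rank 1074, and in replicate 2 a signal of 60.8 and rank 700. The protein-coding 5′ end nearest to it belonged to sea-2, but the site was outside all promoter windows. Further into the gene, 10220 bp from the first 5′ end, a pooled peak at 46.5 (rank 3552) was also overlapped by both replicates. At the first promoter of sea-2 the pooled list had only a summit of 20.5, rank 27362, and the highest at any of its 6 annotated 5′ ends was 22.7, rank 22239. These values are near the lowest of the pooled list, 19.5.

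**Figure D2:**
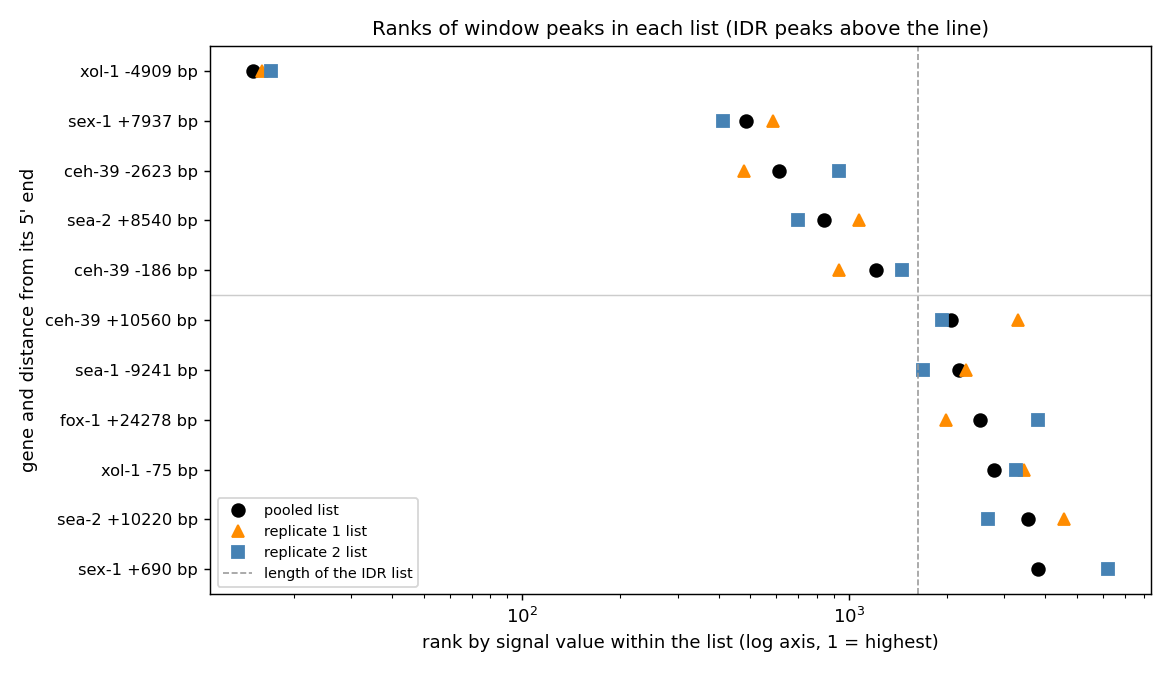
Rank by signal value (log axis, 1 is the highest) in the pooled list and each replicate list, for the 5 IDR peaks of the 6 windows above the grey line and 6 other pooled peaks below it; the dashed line marks 1626, the length of the IDR list. All 3 ranks of each IDR peak lie left of the dashed line, with the xol-1 upstream site at 15, 16 and 17. The sex-1 intron peak has no replicate 1 point.

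All 5 IDR peaks in the windows were overlapped, by at least 1 bp, by a peak of each replicate, against 99.1% of all nuclear IDR peaks. The IDR procedure selects for this. Of the 55 other pooled peaks in the windows, 19 were overlapped by both replicates, or 34.5%. With the IDR peaks these make 24 of 60 pooled peaks, against 26.5% of all nuclear pooled peaks, which include the IDR peaks. In counts, 7946 of 29983 nuclear pooled peaks were overlapped by both, and 1596 of the 1611 nuclear IDR peaks among them. The share over all nuclear pooled peaks outside the IDR list is therefore below 26.5%, but its value was not computed. Overlap does not require that the summits coincide, as the fox-1 peak and the second summit of the xol-1 site show. Second summits in the windows of ceh-39, sea-1 and sea-2 were likewise matched to the replicate peaks of the stronger summit beside them. The 19 overlaps therefore did not all rest on different replicate peaks.

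**Figure D3:**
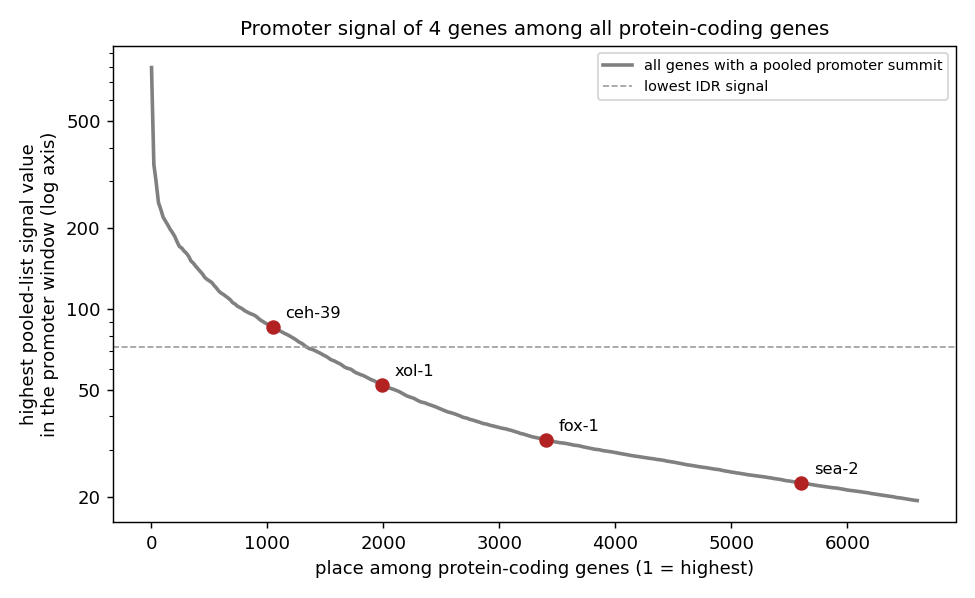
Highest pooled signal value in the promoter of each protein-coding gene that had a pooled promoter summit (log axis), in order from the highest; red points mark ceh-39, xol-1, fox-1 and sea-2, and sex-1 and sea-1 had no such summit. Only ceh-39, at 85.8, lies above the dashed line at the lowest IDR signal of 72.6; xol-1 is at 52.5.

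By promoter signal the genes fell in the order ceh-39, xol-1, fox-1 and sea-2, with sex-1 and sea-1 unlisted. In all, 4 of the 6 genes had a pooled summit in a promoter, where the share over all genes was 33.1%. The median promoter signal of the 6604 genes with one was 33.5, so ceh-39 (85.8) and xol-1 (52.5) were above it and fox-1 (32.8) and sea-2 (22.7) below it. Among all 19973 genes ceh-39 took place 1045, xol-1 place 1990, fox-1 place 3404 and sea-2 place 5602. On the X chromosome, the places were 87 for ceh-39, 207 for xol-1 and 396 for fox-1 of 2731 genes. Replicate 1 had promoter summits for 3 of the 6 genes, xol-1, ceh-39 and sea-2, against 18.9% of all genes. Replicate 2 also had them for 3, xol-1, fox-1 and ceh-39, against 32.7% of all genes. Only xol-1 and ceh-39 were thus listed at a promoter in both replicates, and in both of them ceh-39 had the higher signal. The share of all genes listed at a promoter in both was not computed.

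The motif searched for its link to this pathway was GCGCAGGG, the core of the X-enriched motif at the sites where the dosage compensation complex is recruited. It had 2 matches at the xol-1 upstream site, the first starting 3 bp before the summit on the minus strand and the second 31 bp after it on the plus strand. They were the only matches in the windows of the 6 genes. Over the genome the motif occurred 81 times on the X chromosome, or 4.57 times per Mb, and 233 times on the autosomes, or 2.82 per Mb. A match lay within 100 bp of the summit in 17 of the 248 IDR peaks on the X chromosome, or 6.85%, and in 2 of 1363 on the autosomes, or 0.147%. The xol-1 site was among 4 X peaks with 2 matches, and no X summit had more. Peaks with the motif were mostly at the top of the X chromosome list: 11 of the 20 X peaks of highest signal had it. The median signal was 496 in the 17 X peaks with the motif and 107 in the 231 without. These are descriptions of sequence; binding of the complex was not measured in these samples, and a match does not show that a site is used by it.

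**Figure D4:**
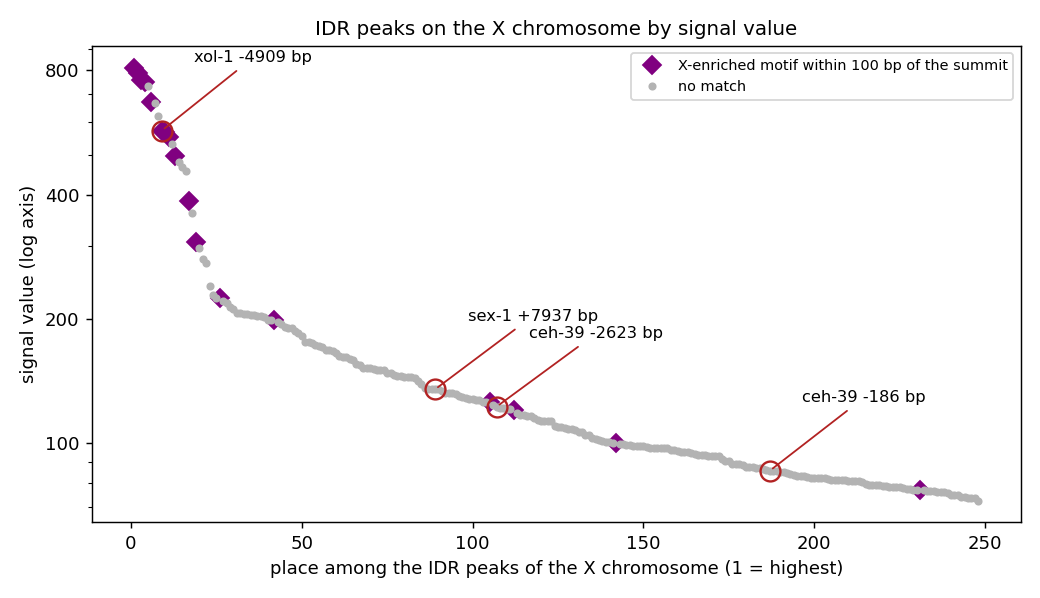
Signal value (log axis) of the 248 IDR peaks on the X chromosome in order from the highest. Purple diamonds have GCGCAGGG within 100 bp of the summit and grey points have no match; circles mark the peaks in the windows of xol-1, sex-1 and ceh-39. The xol-1 site, 9th at 571, carries the motif, and the other 3 circled peaks, between 85.8 and 135, do not.

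The remaining motifs were counted on both strands in 1 promoter a gene, from 500 bp before its 5′ end to 200 bp after it, without removing overlaps between them. The repeat GAGAGA was in 6 of the 6 promoters and in 36.8% of all promoters. AGGTCA, a site type read by nuclear receptors, was in those of fox-1 and sea-1, against 16.8% of all promoters, and the promoter element GCGTCTC in the same 2, against 7.69%. CGAGACC was in none (7.02% of all promoters), and GCGCAGGG was in none (0.205%). TGATAA, the site of GATA factors, was in 3 (53.8%) and TATAAA in 2 (62.7%). TTGCAC was in 2 (28.7%), the ONECUT-type site ATCGAT in 2 (24.2%) and GCATG, the core of the site that FOX-1 reads in RNA, in 1 (43.8%).

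At the summits themselves the 5 sites had little in common. The ceh-39 promoter and the nucb-1 site beside sex-1 held none of the 10 motifs. The sea-2 intron site held GAGAGA starting at 10 positions, on the minus strand, with GCGTCTC and TATAAA once each. Of all nuclear IDR summits, the shares with these motifs within 100 bp were, in the same order, 42.2%, 17.8% and 14.8%. The ceh-39 upstream site held GCATG once, inside the tRNA gene that its sequence includes. The xol-1 upstream site held ATCGAT and TATAAA beside its 2 matches to GCGCAGGG. The share of nuclear IDR summits was 19.4% for the motif at the ceh-39 upstream site. For the ONECUT-type site at xol-1 it was 10.1%. No test was made of these matches. The GC content was 57.2% at both ceh-39 sites, 43.8% in the sea-2 intron, 37.3% at the nucb-1 site and 35.8% at the xol-1 upstream site. The median over X chromosome IDR summits was 46.8%, so the ceh-39 sites were richer in GC and the other 2 X chromosome sites poorer. At the xol-1 promoter the value was 41.8%, with a single match, to TATAAA.

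Genes that act with or below these 6 were taken as lists. Of 10 genes of the dosage compensation complex, 3 had an IDR summit in the promoter, against the 6.69% of all genes given above. They were sdc-2, mix-1 and dpy-30. The gene sdc-2 encodes the protein that brings the complex to X and is the main target of xol-1; its peak, chrX:11522114-11522509, lay 395 bp upstream with a signal of 121 and rank 624. Its replicate signals were 53.0 (rank 793) and 73.3 (rank 471), so it was high in both lists. The peak of dpy-30, whose product also works in histone methylation complexes, was at chrV:12190943-12191338, 378 bp upstream, with a signal of 93.0 and rank 1058. That of mix-1, a condensin subunit gene, was at chrII:10824015-10824410, 33 bp upstream, with a signal of 78.0 and rank 1451, in a promoter shared with R06F6.12. For mix-1 the replicates stood apart, with rank 5252 in replicate 1 and rank 836 in replicate 2, and 2 of the 10 genes, sdc-2 and dpy-30, had a promoter summit among the 1626 highest peaks of replicate 1.

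None of 15 genes of sex determination downstream of xol-1, from her-1 and the tra and fem genes to mab-3 and dmd-3, had an IDR summit in the promoter, against 6.69% of all genes, and 5 had a pooled one, a share near the 33.1% of all genes. Of 6 ONECUT genes 2 had an IDR summit, ceh-39 and ceh-38, which with so few genes says little beside the same 6.69%. The ceh-38 peak, chrII:6951390-6951785, lay 31 bp upstream in a promoter shared with malt-1, and its signal of 228 at rank 109 was higher than that of ceh-39. The T-box genes, to which sea-1 belongs, had none among 21 that matched the annotation, and 3 had a pooled summit, against 6.69% and 33.1% of all genes. Of 6 matched RNA-binding and splicing factor genes grouped with fox-1, only asd-1, a close relative of fox-1, had an IDR summit, 474 bp upstream with a signal of 75.1 and rank 1543, near the end of the list; the share of all genes was again 6.69%. When the 1626 highest peaks of either replicate were used in place of the IDR list, 0 of these genes had a promoter summit. The replicate peak overlapping that of asd-1 had a signal of 28.2 and rank 2590 in replicate 1. In replicate 2 it had a signal of 48.8 and rank 1115, so it was among the 1626 highest there, without a summit counted in the promoter. These lists overlap in ceh-39, sea-1 and fox-1 with the 6 genes, and no test was made of them.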

How the data were processed

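ChIP-seq of eGFP-NHR-237 was deposited as peak lists for 2 replicates of 1 group, labelled biological. The authors deposited a signal value for each peak, which is used here unscaled. The −log10 of the q-value, deposited in the replicate and IDR lists, was read and not used to rank, because many peaks share its highest value. A control alignment entered the replicate lists and the pooled list, from which the IDR list was derived, per the deposited text listings. Not given in the sources used here are the aligner, caller, software versions and threshold of the IDR step. The lists on build ce10 and the control were not analysed here, and depth is unknown.

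Positions are on ce11, 1-based, with the WBcel235 sequence and Ensembl release 115 gene models. A summit was the start plus the deposited offset; it was the midpoint of the peak in 94.2% of IDR peaks, which limits how closely it marks the point of highest signal. A peak was matched to a replicate by an overlap of 1 bp, taking the overlapping peak of highest signal. Motifs were matched exactly on both strands. Non-coding genes came from the same annotation, without strand in the peak lists. Named genes were the 6 genes, genes with a promoter at, or the 5′ end nearest to, an IDR summit in their windows, and list genes with an IDR promoter summit; other neighbours were named after their values were seen. The genes, lists and motifs were chosen with earlier results of these data known. Symbols that matched no annotated gene (tbx-42 and hrp-2) were left out. No statistical test was made, since 1 group allows none between samples. Alternatives were other promoter windows and flanks, the gene record's 5′ end, the nearest gene within 2000 bp, the peak midpoint, the 813 IDR peaks of higher signal, other overlap rules, and, in place of the IDR list, an equal number of highest peaks from either replicate. Counting was tested on simulated peaks. Python 3.11.15, numpy 2.4.6, pandas 2.3.3 and matplotlib 3.10.9 were used.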

Additional observations from a re-analysis of the deposited data

How the results depend on the processing

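Of 102 alternatives, 71 left the value close to that reported and 31 moved it. A count was taken as close within 1.5 times, and a rank within the spread (SD) of its replicate ranks. Ranks in the pooled list were the same by construction, since IDR peaks carry their pooled values. By the rule for ranks, the xol-1 upstream site at 16 and 17, against 15, counted as moved. Motif matches at summits, a different quantity from those in promoters, were among the alternatives too. The tally therefore does not measure how firm the results are. With the 813 IDR peaks of higher signal, genes of the 6 with a promoter summit numbered 0, summits in the windows 3, dosage compensation genes 1 (sdc-2), ONECUT genes 1 and fox-1-type genes 0. With flanks of 2 kb in place of 10 kb, 2 of the 6 genes (ceh-39 and sea-2) had a summit, with 2 summits in all and 2 IDR peaks overlapped by both replicates. A promoter of 300 bp upstream to 100 bp downstream left 1 dosage compensation gene (mix-1) and 0 fox-1-type genes. For these settings, and for the replicate lists below, the share of all genes was not computed. Whether these genes changed more than other genes would is therefore not known. The median rank of the 5 peaks was 612 in the IDR list and 700 in the replicate 2 list. With the top peaks of either replicate alone, the ranges were 1 to 1 gene of the 6 with a promoter summit, 4 to 4 with a window summit, 6 to 6 window summits, 2 to 3 dosage compensation genes, 2 to 2 ONECUT genes, 0 to 0 T-box genes, 0 to 0 sex determination genes and 0 to 0 fox-1-type genes.

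Motif counts over the 6 promoters depended on the length searched. With 250 bp upstream to 50 bp downstream they were 1 for AGGTCA, 3 for GAGAGA, 0 for GCGTCTC, 1 for TGATAA, 1 for TATAAA, 1 for TTGCAC and 0 for GCATG. Of all promoters the shares with a match in that stretch were, in the same order, 8.286%, 21.83%, 4.326%, 30.27%, 38.01%, 13.18% and 21.84%. These shares were also lower than those in the longer promoters given above, so the fall was not particular to the 6 genes. Within 50 bp of the IDR summits of the windows, the genes with a match numbered 0 for AGGTCA, 1 for GAGAGA, 1 for GCGTCTC, 1 for GCGCAGGG, 0 for TGATAA, 1 for TATAAA, 0 for TTGCAC, 1 for ATCGAT and 0 for GCATG. Of all nuclear IDR summits the shares with a match there were, in the same order, 1.80%, 28.1%, 11.9%, 0.807%, 2.98%, 5.28%, 7.88%, 4.41% and 11.9%. The first set of counts searched a shorter stretch of each promoter. The second was taken at summits, so it is a different quantity from the promoter counts. No paired analysis was possible because all samples formed 1 group.

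Depth is unknown, and a gene without a listed summit is one where none was detected in these lists. With 1 group of 2 replicates, no count was tested against the spread between embryo preparations, and peak position alone does not say which gene a site serves.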
